A study of Mus musculus with 8 samples.

Results

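The genes described are the ligands and receptors of axon guidance: the semaphorins of classes 3 to 7, the plexins and neuropilins that bind them, the Eph receptors and ephrins, the slits and robos, and the netrins with Dcc and the Unc5 receptors. They were taken by symbol from the gene table of the libraries, and 70 of 32285 genes matched. The 70 genes held 7 class 3, 6 class 4, 2 class 5, 4 class 6 and 1 class 7 semaphorins, 9 plexins, 2 neuropilins, 9 EphA and 5 EphB receptors, 5 ephrin-A and 3 ephrin-B ligands, 3 slits, 4 robos, 4 netrins, 5 Unc5 symbols and Dcc. Antisense transcripts of Plxna4 (3 symbols) were set aside. Unc5cl matched by its letters and is not a netrin receptor.

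The nuclei came from the hippocampus of male C57BL/6J pups at postnatal day 21. Their dams ate the control diet (MF, folic acid at 2 mg/kg) or one with an excess of it (HF, 20 mg/kg) from before mating until weaning, and each diet gave 2 libraries (MF1, MF2, HF1, HF2) of nuclei in which RNA (GEX) and open chromatin (ATAC) were read together. No group ate a diet free of folic acid, and the study describes the libraries of a diet as biological replicates. The number of pups in a library is not given in the sources used here, so p-values do not measure a spread between pups. For the diets they measure the spread between these libraries. For pairs of classes they measure how far the class difference varied from library to library.

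Guidance ligands are secreted or sit on cell membranes, and a growing axon turns, stops or advances according to the receptors it carries. Semaphorins of class 3 are secreted and act through neuropilins paired with A-type plexins, while those of classes 4 to 6 span the membrane and bind plexins directly. Ephrins and Ephs are both held on membranes and can signal in either direction, slits repel axons through robos, and netrins attract through Dcc and repel through Unc5 receptors. In the hippocampus the same families place mossy fibre, commissural and perforant path axons, and oligodendrocyte precursors use them when they migrate.

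RefSeq promoter sequence of the GRCm38.p6 build, which runs from 250 bases before to 50 bases after a gene's start and carries mm10 coordinates, was found for 60 of the 70 genes. Those of 5 genes on which the comparisons below turn are shown, each for a different class of nuclei: Sema3c for immature granule neurons, Robo3 for mature granule neurons, Slit2 for CA3, Sema3d for oligodendrocyte precursors and Plxnb3 for oligodendrocytes. A peak lay over each of the 5 windows in 4 of 4 libraries. Capitals mark the letters CAGATG and CAGCTG, which are E-boxes of the kinds that neurogenic basic helix-loop-helix factors bind, and ACAATG and ACAAAG, which are cores of the kind that Sox factors bind, each searched on both strands.
Sema3c, chr5:17574566-17574865, plus strand: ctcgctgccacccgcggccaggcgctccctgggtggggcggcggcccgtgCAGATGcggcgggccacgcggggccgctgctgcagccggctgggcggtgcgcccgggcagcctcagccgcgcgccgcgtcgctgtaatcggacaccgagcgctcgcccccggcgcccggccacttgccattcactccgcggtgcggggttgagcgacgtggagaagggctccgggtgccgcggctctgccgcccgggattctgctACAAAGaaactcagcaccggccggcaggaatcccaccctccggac
Robo3, chr9:37433126-37433425, minus strand: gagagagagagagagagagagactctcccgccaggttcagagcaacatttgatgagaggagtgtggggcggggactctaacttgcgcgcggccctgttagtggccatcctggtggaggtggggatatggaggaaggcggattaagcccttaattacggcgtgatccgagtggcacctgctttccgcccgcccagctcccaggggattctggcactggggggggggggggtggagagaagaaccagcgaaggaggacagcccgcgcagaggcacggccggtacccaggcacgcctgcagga
Slit2, chr5:47982905-47983204, plus strand: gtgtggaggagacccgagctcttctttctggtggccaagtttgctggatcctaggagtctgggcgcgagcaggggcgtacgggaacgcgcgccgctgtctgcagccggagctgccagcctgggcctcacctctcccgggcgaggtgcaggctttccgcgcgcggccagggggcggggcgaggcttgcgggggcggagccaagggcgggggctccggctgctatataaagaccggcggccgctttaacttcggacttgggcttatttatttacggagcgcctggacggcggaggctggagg
Sema3d, chr5:12382916-12383215, plus strand: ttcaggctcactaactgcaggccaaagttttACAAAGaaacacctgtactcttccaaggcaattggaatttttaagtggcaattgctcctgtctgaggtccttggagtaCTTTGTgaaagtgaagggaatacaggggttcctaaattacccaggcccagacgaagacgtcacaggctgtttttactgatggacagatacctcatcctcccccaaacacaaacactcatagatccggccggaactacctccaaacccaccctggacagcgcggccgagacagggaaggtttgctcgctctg
Plxnb3, chrX:73756853-73757152, plus strand: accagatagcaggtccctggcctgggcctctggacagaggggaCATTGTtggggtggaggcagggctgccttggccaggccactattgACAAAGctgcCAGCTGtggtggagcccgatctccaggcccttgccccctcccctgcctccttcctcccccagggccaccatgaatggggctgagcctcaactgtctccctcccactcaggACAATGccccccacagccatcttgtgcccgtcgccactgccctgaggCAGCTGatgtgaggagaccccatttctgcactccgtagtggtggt
The Sema3c window, in which 75.7% of the bases are G or C, held CAGATG and ACAAAG. The Sema3d window (49.7% G or C) held ACAAAG at 2 places and the Plxnb3 window held 5 matches, while the Robo3 and Slit2 windows held none. Of 32851 promoters of the same length, 17.2% held CAGATG, 16.3% CAGCTG, 12.6% ACAATG and 18.7% ACAAAG. A match is a description of the letters only.

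Of 14297 deposited nuclei, 11518 passed the filters (2249 to 3473 in a library), with median depths of 6117 to 7053 UMIs, and any pair of libraries shared 8 to 20 cell barcodes. Clusters were named from marker genes, with the guidance genes left out of both the clustering and the naming. This gave 9 classes of at least 92 nuclei in every library: CA1-like (CA1, 1008 nuclei), CA3-like (CA3, 495), mature dentate granule-like (DG-M, 1953), immature dentate granule-like (DG-i, 900), inhibitory neuron-like (INH, 776), astrocyte-like (AST, 1261), oligodendrocyte precursor-like (OPC, 563), oligodendrocyte-like (ODC, 629) and microglia-like (MG, 685) nuclei. A further 1224 excitatory nuclei (333, 231, 344 and 316 in MF1, MF2, HF1 and HF2) met no name, and 990 nuclei in clusters with high doublet scores and 54 mixed excitatory nuclei, 53 of them from MF1, were not used. Nuclei over the doublet score made up 23.6% of INH, 13.1% of CA1 and 9.7% of CA3, and under 4% of each of the other 6 classes. RNA from outside the nucleus can reach any droplet: the excitatory marker Slc17a7 in AST, OPC, ODC and MG stood at 8.1% to 12.5% of its level in CA3, and the 12 excitatory markers summed stood at 25.4% to 31.3% of their DG-M level, with single markers at 1.59% (Sv2b in ODC) to 59.0% (Nrgn in OPC) of their own highest excitatory class, whereas the oligodendrocyte marker Mog was under 1% of its ODC level in each other class. In MG, HF1 stood apart in choroid plexus markers. All 6 had UMIs there, with Ttr at 3681 CPM, whereas MF1, MF2 and HF2 had UMIs of 3, 1 and 0 of them, and their summed level was 18.0, 11.4, 3781 and 0 CPM. In the other 8 classes HF1 also had the highest sum of the 4 libraries, at 53.7 to 279 CPM. Values of guidance genes in glia below the share of Slc17a7 in the same class, taken of their neuronal level, are therefore not read as expression.

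Levels are CPM, the UMI counts of a gene scaled to one fixed total for each class and library, given in the order MF1, MF2, HF1, HF2. They compare classes within a gene, not genes with each other, because reads from nuclei are partly intronic and grow with gene length. A mean of 10 CPM in at least 1 class was reached by 58 of the 70 genes. The other 12 were Efna4, Epha1, Epha2, Epha8, Plxnd1, Ntn3, Ntn5, Robo4, Sema3b, Sema3f, Sema3g and Unc5cl, whose highest class mean lay between 0.273 CPM (Sema3g) and 9.47 CPM (Efna4). The highest class of a gene is given here and below among the 9 classes only, and some smaller clusters are described apart. The 1224 excitatory nuclei that met no name lie outside these classes, and no levels of theirs are given. A highest neuronal class was therefore not compared with them. For 34 genes the highest class stood clear, meaning that its lowest library (at least 10 CPM) lay above every library of the other 8 classes. Of all 13316 genes that reached 10 CPM in some class, 34.0% had such a class. DG-i was the clear class for 13 of the 58 guidance genes and for 3.15% of all genes, and ODC for 7 (5.33% of all genes). DG-M was it for 3 (1.74%), AST for 3 (5.48%), OPC for 3 (2.19%) and INH for 2 (1.74%). CA1 (1.18%), CA3 (1.03%) and MG (12.1%) had 1 gene each. Among the 9 classes, immature granule neurons thus carried the highest level of Sema3a, Sema3c, Sema4f, Sema5a, Sema7a, Plxna2, Plxna3, Nrp1, Nrp2, Epha4, Ephb2, Robo1 and Dcc. Their libraries did not overlap those of any other of the 9.

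**Figure D1:**
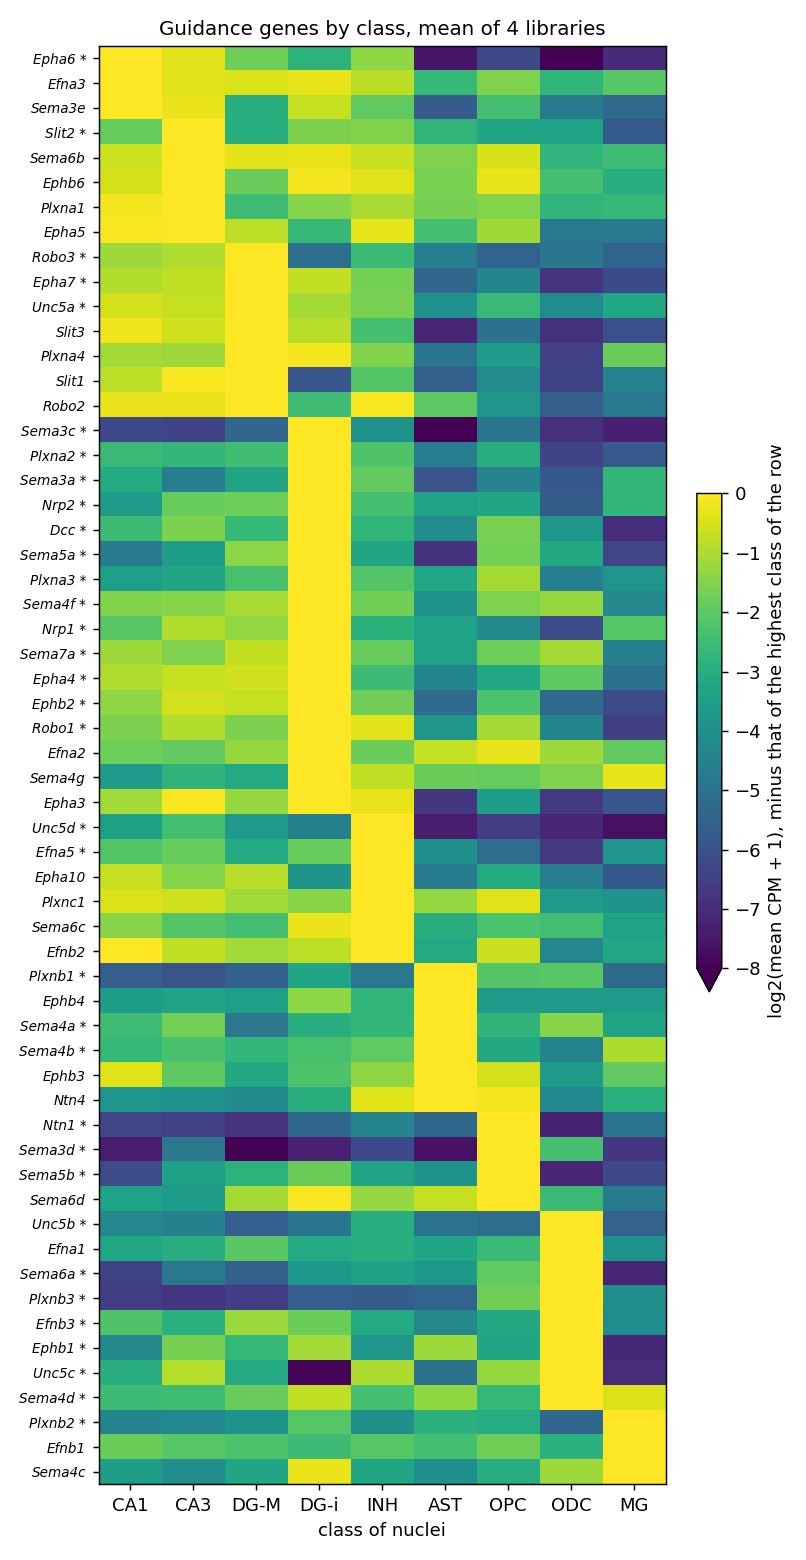
The 58 guidance genes that reached 10 CPM, in rows ordered by highest class, over 9 classes of nuclei in columns. Colour is the log2 of the class mean of 4 libraries plus 1, less that of the row's highest class, and a star marks the 34 genes whose highest class overlapped no other, 13 of them in DG-i and 7 in ODC.

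Classes were then compared in pairs by edgeR's quasi-likelihood test on summed counts with the library as a block. A gene was called at an adjusted p under 0.05 over all genes tested and at least 1.2-fold. Between the granule stages 51 of the 70 genes could be tested, and 32 were called higher in DG-i and 14 higher in DG-M. Over all genes 25.5% were higher in DG-i and 22.8% in DG-M, and the median log2 difference was 0.85 for the guidance genes and 0.05 for all genes. Between CA1 and CA3, 9 of 52 were higher in CA1 and 19 in CA3 (13.0% and 12.9% of all genes), with medians of -0.12 and 0.01. Between CA1 and DG-M, 17 of 54 were higher in CA1 and 22 in DG-M (21.5% and 22.8%), and the medians were -0.14 and -0.03. Between CA3 and DG-M, 23 of 50 were higher in CA3 and 15 in DG-M (21.5% and 22.2%), with medians of 0.22 and -0.03. In glia, 9 of 37 genes were higher in ODC and 23 in OPC (25.2% and 30.2% of all genes), and 8 of 36 were higher in AST and 24 in OPC (22.4% and 24.8%). The medians there were -2.02 and -1.25 for the guidance genes against -0.05 and -0.04 for all genes. These fits scale by TMM factors, which centre them on the bulk of genes, whereas the CPM printed use library totals. With totals alone, an alternative chosen after seeing the data, the median of all genes moved by 0.25 between the granule stages, by -0.11 between CA1 and DG-M and by -0.19 between ODC and OPC, and by under 0.1 in the other 3 pairs. The share of all RNA calls that were higher in the first class went from 52.8% to 71.3% for DG-i against DG-M, from 48.6% to 35.3% for CA1 and from 49.2% to 38.8% for CA3 against DG-M, and from 45.5% to 35.3% for ODC against OPC. For the guidance genes the calls were then 32 and 12 between the granule stages, 15 and 24 for CA1 and 22 and 17 for CA3 against DG-M, and 9 and 23 between ODC and OPC, and no called gene changed direction.

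Of the secreted semaphorins, Sema3a and Sema3c were highest, among the 9 classes, in immature granule neurons, Sema3d in oligodendrocyte precursors and Sema3e in pyramidal neurons. Sema3c, a cue for cortical and callosal axons, was at 1446, 1337, 1338 and 1434 CPM in DG-i and at 30.1, 21.1, 30.6 and 48.9 CPM in DG-M. Every DG-i library thus lay far above every DG-M library, and INH came next with a mean of 90.3 ± 18.8 CPM (SD, n = 4). The log2 difference between the granule stages was 5.16 ± 0.10 (SE; adjusted p = 5.3e-41). Here and below the SE of a log2 difference was derived from the F statistic of its test. It can be too small where a class held few counts, as for Slit1 and Unc5c in DG-i and Sema3d in AST. Sema3a, the founding repellent of the class, was at 95.5, 81.8, 63.2 and 105.5 CPM in DG-i and at 5.9 to 10.9 CPM in DG-M, a log2 difference of 3.19 ± 0.19 (adjusted p = 2.4e-20). All 3 class 3 genes tested between the granule stages were higher in DG-i, the third being Sema3e (2.03 ± 0.10, adjusted p = 6.5e-24).

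Sema3d was the class 3 gene of oligodendrocyte precursors. It was at 482, 601, 397 and 599.8 CPM in OPC, at 64.6 to 131 CPM in ODC and at 0 to 3.68 CPM in AST, and the OPC libraries overlapped no other of the 9 classes. The log2 difference was -2.22 ± 0.14 for ODC against OPC (adjusted p = 6.4e-15) and -8.001 ± 0.258 for AST against OPC (adjusted p = 1.1e-65). Among neurons it was found in CA3, at 21.9, 17.2, 14.1 and 16.9 CPM against 0.754 to 3.36 CPM in CA1, so that CA3 and CA1 did not overlap (CA1 minus CA3 -3.01 ± 0.28, adjusted p = 2.8e-09). Sema3e, which signals through Plxnd1 without a neuropilin, was shared by both pyramidal classes: it averaged 373 ± 42.1 CPM in CA1 and 314 ± 28.0 CPM in CA3 (SD, n = 4) against 47.5 ± 9.89 CPM in DG-M. It was 3.10 ± 0.08 higher in CA1 than in DG-M on the log2 scale (adjusted p = 4.0e-24), while the CA1 and CA3 libraries overlapped.

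The neuropilins followed the granule stage as well. Nrp1 was at 1165, 1356, 1121 and 1346 CPM in DG-i against 454 to 563 CPM in DG-M, and Nrp2 at 435, 496, 488 and 515 CPM against 133 to 155 CPM, with no overlap for either gene. Their log2 differences were 1.03 ± 0.06 (adjusted p = 5.0e-21) and 1.53 ± 0.07 (adjusted p = 5.4e-24). Both receptors were also higher in CA3 than in CA1, by 1.13 ± 0.06 and 1.73 ± 0.08 (adjusted p = 2.8e-14 and 5.4e-15). Among glia, MG held Nrp1 at 269, 251, 364 and 262 CPM. Taken of its DG-i level, this lay above the share of Slc17a7 in MG (9.3%). It lay under that of the summed excitatory markers there (28.4%), and the part of free RNA was not tested.

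Among the plexins, 5 of 7 tested were higher in DG-i. The other 2, Plxna4 and Plxnc1, were called higher in DG-M with TMM scaling but not with library totals. Plxna2, a receptor for class 6 semaphorins, was at 927, 1058, 999 and 1026 CPM in DG-i and at 164 to 207 CPM in DG-M (log2 difference 2.21 ± 0.07, adjusted p = 3.9e-32). Plxna3 showed the same order, at 30.5 to 44.7 CPM against 5.86 to 9.28 CPM (2.18 ± 0.21, adjusted p = 9.0e-13). Plxna4 averaged 1237 ± 142 CPM in DG-i and 1342 ± 124 CPM in DG-M (SD, n = 4), with overlapping libraries. Its log2 difference was -0.38 ± 0.06 with TMM scaling (adjusted p = 1.2e-07) and -0.12 ± 0.06 with library totals, under the minimum fold (adjusted p = 0.068), and for Plxnc1 it was -0.60 (adjusted p = 0.0049) and -0.35 (adjusted p = 0.10). Plxna1 marked the pyramidal classes, at 20.0 to 30.7 CPM in CA1 and 20.0 to 33.8 CPM in CA3 against 3.07 to 5.12 CPM in DG-M. The log2 differences from DG-M were 2.70 ± 0.17 for CA1 and 2.81 ± 0.18 for CA3 (adjusted p = 2.0e-14 and 1.5e-12).

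Each B-type plexin, the receptors of class 4 and 5 semaphorins, was highest in a different glial class. Plxnb1 was at 84.6, 104.9, 92.2 and 78.3 CPM in AST and at 15.1 to 24.1 CPM in OPC and ODC. Plxnb2 was at 138.9, 68.5, 103.1 and 98.9 CPM in MG, and the next class, DG-i, reached 26.8 CPM. Plxnb3 was at 118, 127, 109.6 and 116 CPM in ODC against 28.5, 27.9, 62.2 and 21.2 CPM in OPC and at most 12.9 CPM in any library of the other classes. None of the 3 overlapped another class. Plxnb3 was 1.89 ± 0.21 higher in ODC than in OPC (adjusted p = 4.9e-09), and Plxnb1 was 2.23 ± 0.24 higher in AST than in OPC (adjusted p = 4.2e-16). Plxnd1 had a mean of at most 6.41 CPM in the 9 classes, but was 2.29 ± 0.42 higher in CA1 than in CA3 (adjusted p = 9.8e-05). Plxnc1, the receptor of Sema7a, was lower in ODC than in OPC by 3.44 ± 0.38 (adjusted p = 3.1e-09).

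Of the membrane semaphorins of class 4, Sema4a and Sema4b were highest in AST among the 9 classes. Sema4a was at 49.7, 54.5, 46.5 and 30.2 CPM and Sema4b at 95.7, 63.7, 84.1 and 80.6 CPM in AST, and neither overlapped another of the 9 classes. Against OPC the log2 differences were 3.01 ± 0.36 and 3.27 ± 0.29 (adjusted p = 1.7e-13 and 8.2e-21). All 3 class 4 genes tested between AST and OPC were higher in AST, the third being Sema4d (1.41 ± 0.21, adjusted p = 1.4e-09). In neurons Sema4a was near 0 in DG-M (0.419 to 0.903 CPM) and at 10.2 to 15.7 CPM in CA3, a log2 difference of 4.47 ± 0.34 (adjusted p = 2.8e-11). Sema4c and Sema4g were each more than 3 log2 units higher in DG-i than DG-M, at 17.8 to 26.7 CPM against at most 2.36 CPM (3.29 ± 0.31, adjusted p = 6.0e-13) and at 26.8 to 43.1 CPM against 2.83 to 4.53 CPM (3.15 ± 0.24, adjusted p = 2.1e-16).

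The class 5 semaphorins stood in descending order from granule neurons to CA1. Sema5a was at 1793, 2096, 1893 and 2344 CPM in DG-i, 667 to 838 CPM in DG-M, 160.3 to 192 CPM in CA3 and 45.7 to 99.7 CPM in CA1, and none of these 4 classes overlapped its neighbour. It was 1.15 ± 0.06 higher in DG-i than DG-M (adjusted p = 5.5e-24) and 3.27 ± 0.09 lower in CA1 than in DG-M (adjusted p = 3.6e-23). Sema5b kept the same order in neurons, from 57.5 to 66.5 CPM in DG-i down to 1.51 to 2.58 CPM in CA1, but was highest in OPC, at 205, 202, 207 and 247 CPM. In ODC only 2 UMIs of Sema5b were counted against 410 in OPC, a ratio of 342 (95% counting interval 94.0 to 2831). Sema6d, a ligand of A-type plexins, was lower in CA1 and in CA3 than in DG-M by 2.20 ± 0.06 and 2.46 ± 0.06 (adjusted p = 1.7e-22 and 5.0e-21). Sema6a, which also binds them, was at 753, 1051, 827 and 1040.5 CPM in ODC against 211 to 265 CPM in OPC (2.11 ± 0.12, adjusted p = 1.1e-15).

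**Figure D2:**
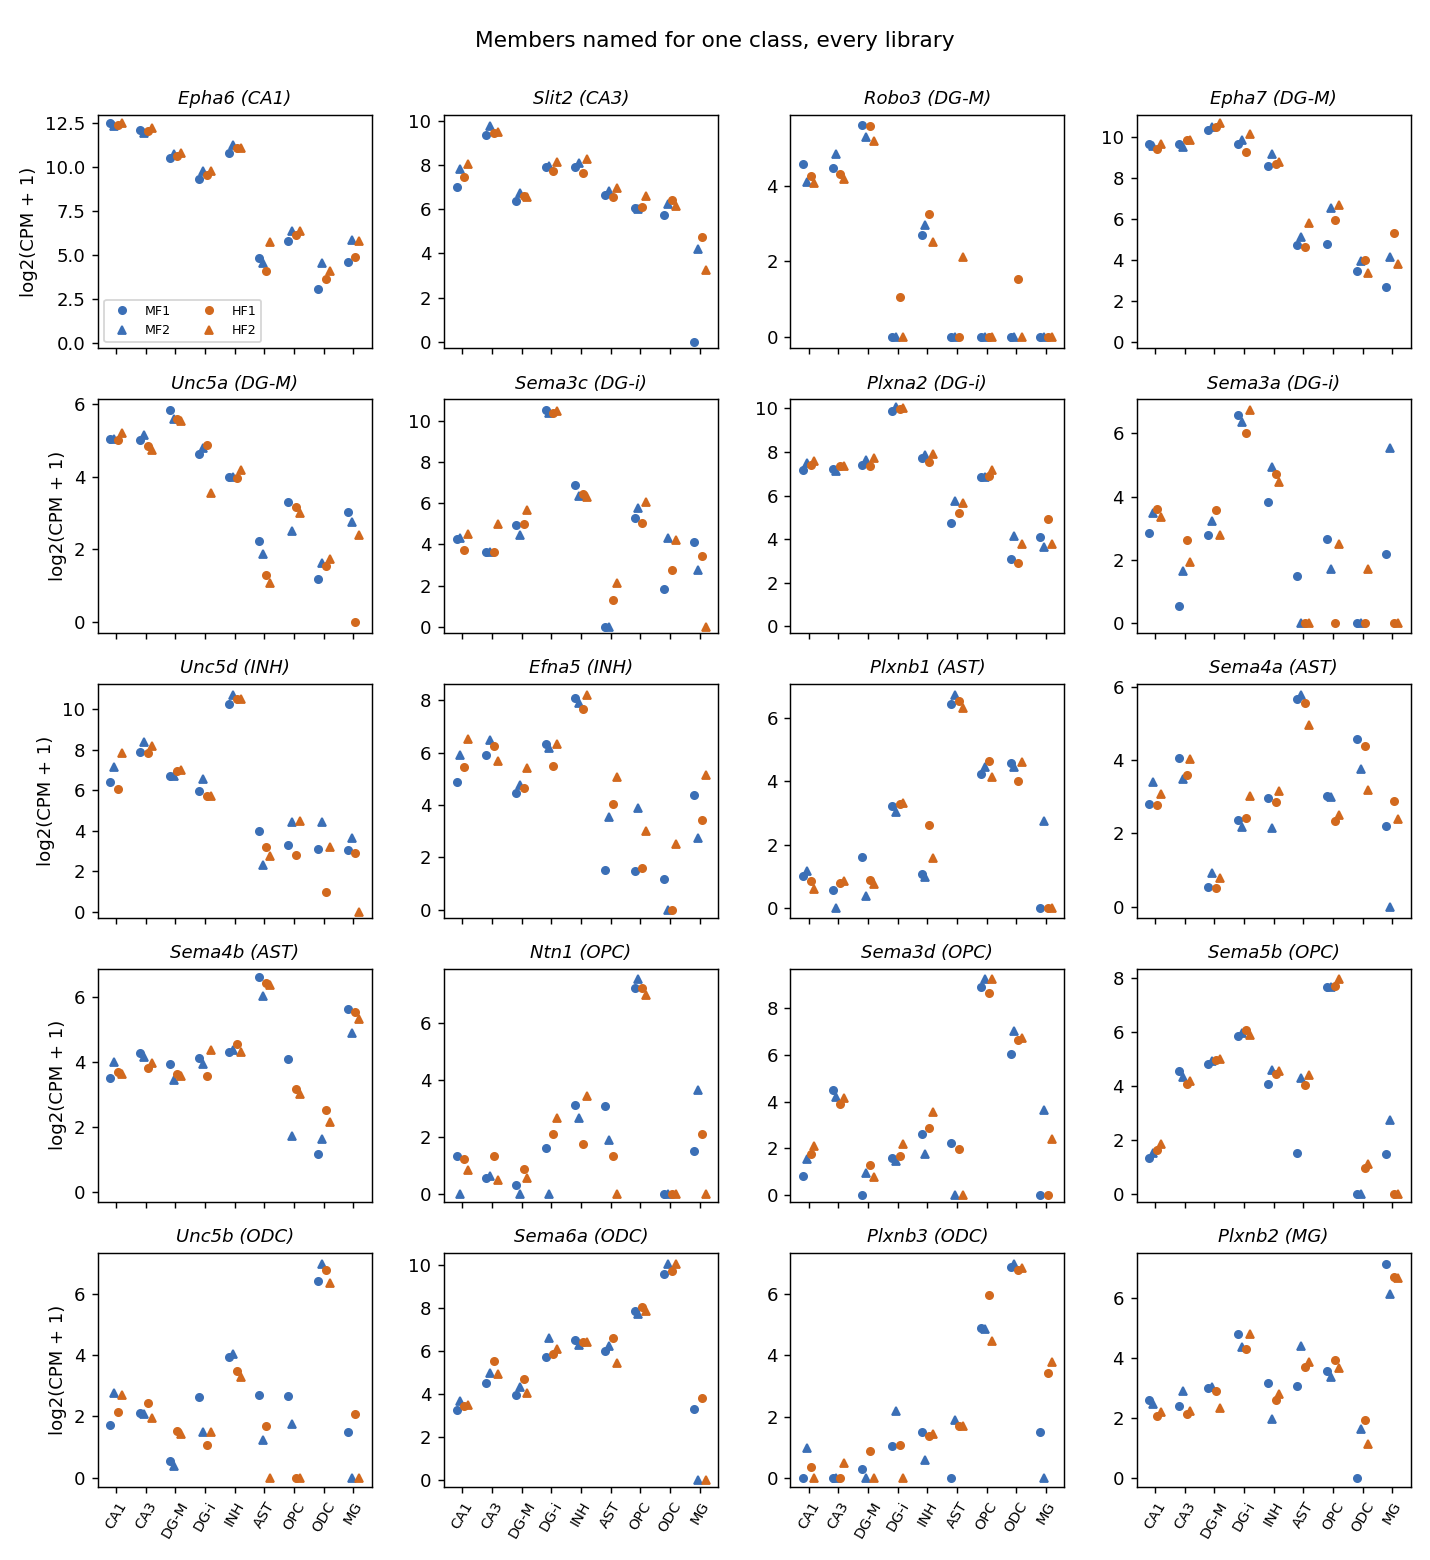
Level of 20 guidance genes, each shown for the class whose libraries overlapped no other class, as log2(CPM + 1) in 9 classes of nuclei, with 1 point for each library (blue MF, orange HF, circle replicate 1, triangle replicate 2). In each panel the 4 points of the class in brackets lie above all others, as for Sema3c in DG-i (1337 to 1446 CPM).

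Slits and robos differed between the granule stages in both directions. Slit1 was at 225, 245, 237 and 265 CPM in DG-M and at 1.03, 1.78, 3.27 and 7.15 CPM in DG-i, a log2 difference of -6.55 ± 0.20 (adjusted p = 3.2e-32). Robo3, an atypical robo that opposes slit repulsion in commissural axons, was at 47.1, 38.2, 46.9 and 35.4 CPM in DG-M. In DG-i only 1 UMI of Robo3 was counted, against 709 in DG-M, which gave a ratio of 128 (95% counting interval 22.8 to 5043). Robo2 was likewise higher in DG-M, at 736 to 1068 CPM against 104 to 229 CPM in DG-i (-2.77 ± 0.09, adjusted p = 1.1e-31). Robo1 took the opposite course, at 1654, 2073, 1845 and 2089.8 CPM in DG-i and 530 to 767 CPM in DG-M (1.34 ± 0.06, adjusted p = 1.1e-25). The other two slits were split: Slit3 was higher in DG-M and Slit2 in DG-i, by 1.12 ± 0.06 and 1.13 ± 0.09 (adjusted p = 1.8e-23 and 2.2e-15).

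Slit2 was the gene that marked CA3. It was at 646, 872, 697 and 707 CPM in CA3, 129 to 258 CPM in CA1 and 81.1 to 103 CPM in DG-M, so that the CA3 libraries lay clear of both. The log2 difference was -1.90 ± 0.08 for CA1 against CA3 (adjusted p = 1.1e-15) and 3.06 ± 0.06 for CA3 against DG-M (adjusted p = 1.1e-23). Robo1 was higher in CA3 than in CA1 (0.64 ± 0.05, adjusted p = 6.7e-11), while Robo2 differed by 0.01 ± 0.05 between CA1 and CA3 (adjusted p = 0.93). In the oligodendrocyte lineage Robo1 was lower in ODC than in OPC by 3.19 ± 0.13 (adjusted p = 4.0e-19).

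The attractive and repulsive netrin receptors differed between the granule stages in opposite directions. Dcc, the attractive receptor, was at 7034, 8320.2, 7244 and 9148 CPM in DG-i and 1032 to 1430.3 CPM in DG-M (2.40 ± 0.05, adjusted p = 2.9e-38). Unc5c, which carries the repulsive response, was at 5.14, 16.0, 20.7 and 7.15 CPM in DG-i and 253 to 440.4 CPM in DG-M (-5.05 ± 0.15, adjusted p = 1.2e-32). All 3 Unc5 receptors tested were lower in DG-i, including Unc5a (-1.33 ± 0.17, adjusted p = 4.6e-09) and Unc5d (-1.11 ± 0.13, adjusted p = 2.9e-10). The Unc5 receptors were highest in 3 classes: Unc5a in DG-M (55.9, 46.7, 46.7 and 44.9 CPM), Unc5d in INH (1232, 1684, 1438 and 1476 CPM), and Unc5b and Unc5c in ODC. CA3 exceeded CA1 for Dcc (0.93 ± 0.05), Unc5c (2.07 ± 0.07) and Unc5d (1.13 ± 0.13), with adjusted p of 3.0e-14, 1.4e-18 and 1.1e-07.

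Ntn1, the ligand of these receptors, was found mainly in OPC among the 9 classes. It was at 148, 183, 146 and 125 CPM there and at most 11.4 CPM in any library of another of the 9. Outside them, a cluster with cycling markers (104 nuclei, 19.2% over the doublet score) held it at 62.0, 34.8, 74.9 and 101.9 CPM. Nuclei with vascular leptomeningeal markers held it at 0 to 59.0 CPM. No UMI of Ntn1 was counted in ODC against 288 in OPC, so that it was at least 160.0-fold higher in OPC (floor of 3 counts over the group, 0.940 CPM). Against AST it was 5.85 ± 0.30 higher in OPC on the log2 scale (adjusted p = 3.1e-41). Unc5b, in contrast, was at 84.9, 125, 108 and 81.0 CPM in ODC and at 0 to 5.35 CPM in OPC (5.61 ± 0.38, adjusted p = 5.4e-14). Unc5c was at 1185, 1309, 1222 and 1531 CPM in OPC and higher in ODC, at 2620.0, 3564, 2192 and 4136 CPM (1.38 ± 0.10, adjusted p = 2.1e-13), while Dcc was lower in ODC (-2.04 ± 0.11, adjusted p = 1.7e-16).

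Of the 14 Eph receptors, 5 had a class that stood clear: Epha4 and Ephb2 in DG-i, Epha6 in CA1, Epha7 in DG-M and Ephb1 in ODC. Epha6 was at 5859, 5225, 5400 and 5860.0 CPM in CA1, 3958 to 4764 CPM in CA3 and 1469.8 to 1837 CPM in DG-M, and the CA1 libraries overlapped no other of the 9 classes. It was 1.87 ± 0.06 higher in CA1 than in DG-M (adjusted p = 1.1e-20) and 0.38 ± 0.04 higher in CA1 than in CA3 (adjusted p = 9.7e-08). Epha7 was clear in DG-M, at 1288, 1449.6, 1424 and 1648 CPM. Among the EphA receptors tested between the granule stages, 3 of 7 were higher in DG-i (Epha3, Epha4 and Epha8) and 4 in DG-M. Those higher in DG-M were Epha10 (3.44 ± 0.26 on the log2 scale, adjusted p = 1.6e-16), Epha5 (2.15 ± 0.07, adjusted p = 8.2e-31), Epha6 and Epha7. All 3 EphB receptors tested were higher in DG-i, among them Ephb1 (1.34 ± 0.09, adjusted p = 1.4e-18).

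Ephb1 also differed between CA3 and CA1 and between ODC and OPC. Among the 9 classes its mean was highest in ODC, followed by DG-i, AST and CA3, and it was called higher in AST than in OPC. It was at 169 to 216 CPM in CA3 and 25.4 to 37.1 CPM in CA1 (CA1 minus CA3 -2.60 ± 0.08, adjusted p = 3.1e-19), and at 511, 589, 628 and 694 CPM in ODC against 46.4 to 88.2 CPM in OPC (3.49 ± 0.15, adjusted p = 1.7e-18). Ephb3 was low throughout, but was at 4.39 to 11.3 CPM in CA1 against 0 to 0.709 CPM in DG-M (4.48 ± 0.43, adjusted p = 3.3e-10). Epha5 was lower in ODC than in OPC, at 48.2 to 55.6 against 538 to 783 CPM (-3.48 ± 0.14, adjusted p = 9.9e-20), and the 5 EphA receptors tested between AST and OPC were all lower in AST. Of these only Epha5 stood in OPC above the free RNA share taken up below.

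Ephrins are the ligands of Ephs. Efna5 was at 275, 241, 201 and 296 CPM in INH and at most 89.9 CPM in the other 8 classes. It was higher in CA1 and in CA3 than in DG-M by 1.03 ± 0.10 and 1.36 ± 0.16 (adjusted p = 7.3e-10 and 7.2e-08). Efna4 was low but was higher in DG-i than DG-M (3.33 ± 0.51, adjusted p = 2.5e-07). The B-type ephrins divided the oligodendrocyte lineage: Efnb3 was at 151, 127, 156 and 119 CPM in ODC against 9.28 to 21.4 CPM in OPC (3.37 ± 0.22, adjusted p = 2.3e-14), and Efnb2 at 0 to 2.31 CPM against 18.8 to 33.9 CPM (-4.02 ± 0.57, adjusted p = 3.8e-07). Efnb2 and Efnb3 were both higher in CA1 than in CA3, by 0.81 ± 0.12 and 0.72 ± 0.13 (adjusted p = 1.0e-05 and 1.0e-04).

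A cluster with markers of committed oligodendrocyte precursors (COP, 361 nuclei, at least 72 in a library) lay outside the tests, and its values are a description. In COP, 3 of the 70 guidance genes lay above every library of the 9 classes, as did 213 (1.59%) of 13391 genes compared. The 13391 leave out the rest of the 32285 genes, whereas the 70 hold every guidance gene, so the bases are unlike. Sema4d was at 570.1, 864, 537 and 607 CPM in COP, and of the 9 classes ODC was next at 243, 199.7, 236 and 238 CPM. Plxnb3, at 260.3, 193, 203 and 172 CPM, and Sema4a, at 88.8, 71.5, 97.3 and 66.3 CPM, were the others. All 3 were thus higher in COP than in OPC or ODC, whereas Ntn1 (12.4 to 24.8 CPM) and Sema5b (66.1 to 146 CPM) lay between OPC and ODC. Unc5b remained at 10.2 to 16.5 CPM, nearer to OPC. Sema5a was at 1576, 1983.5, 1516 and 1753 CPM in COP, which overlapped its libraries in DG-i, the highest of the 9 classes. Nuclei over the doublet score were 20.8% of COP. Without them Sema4d averaged 778 ± 138 CPM, Plxnb3 255 ± 48.7 CPM and Sema4a 94.9 ± 16.9 CPM (SD, n = 4).

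**Figure D3:**
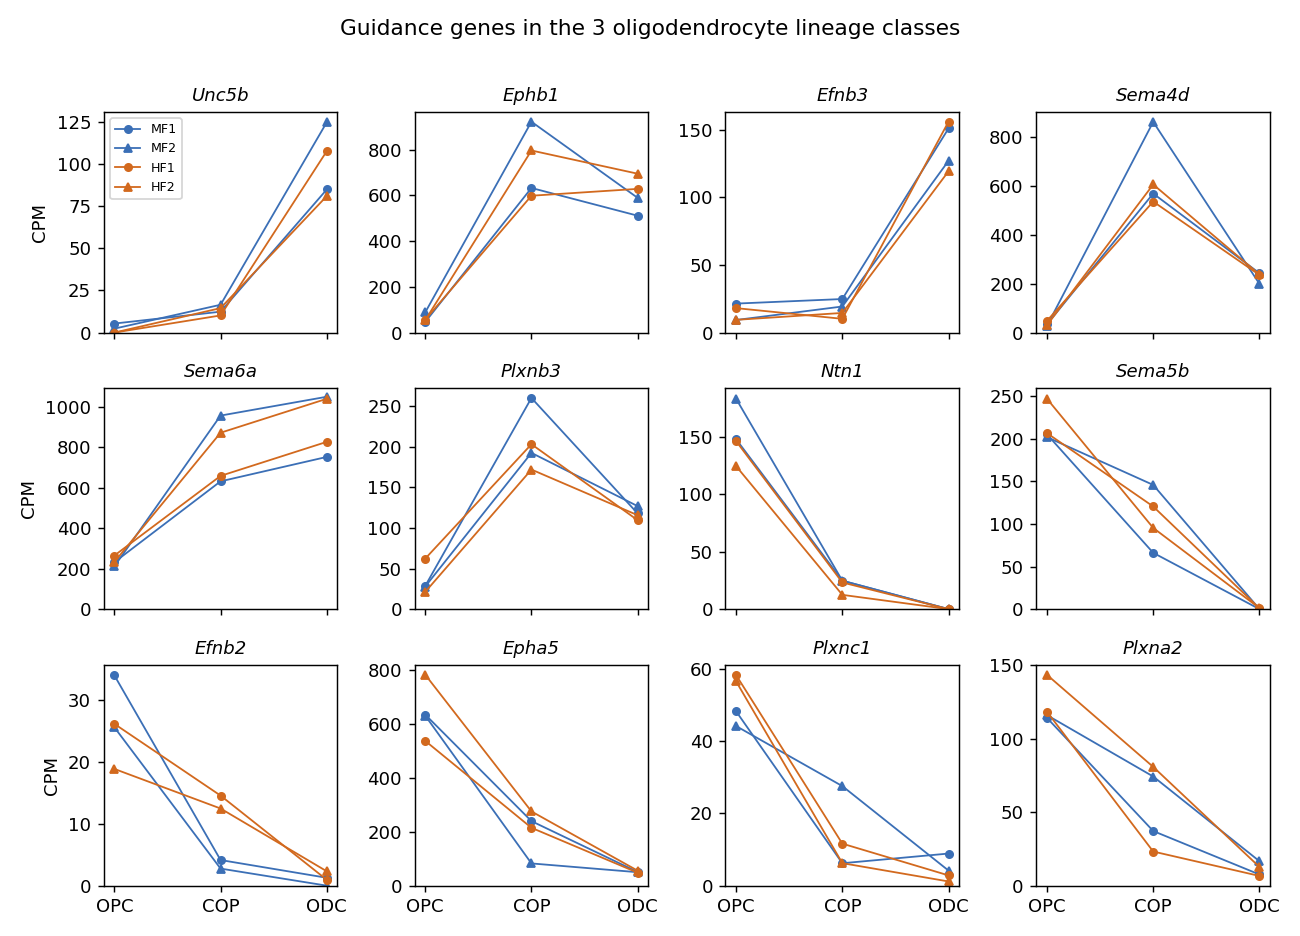
Level (CPM, linear axis from 0) of the 12 guidance genes with the largest differences between ODC and OPC, in oligodendrocyte precursors (OPC), committed precursors (COP) and oligodendrocytes (ODC), with 1 line for each library. Sema4d (537 to 864 CPM) and Plxnb3 (172 to 260.3 CPM) peaked in COP, Ntn1 and Sema5b fell along the line, and Unc5b and Efnb3 were high in ODC.

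Some of the glial differences rest on levels that free RNA can reach. In OPC, Slc17a7 was at 12.5% of its CA3 level. Of the 23 guidance genes higher in OPC than in ODC, 13 stood in OPC above that share of their own highest class, and of the 24 higher in OPC than in AST, 16 did. Against the share of the summed excitatory list in OPC, 31.3%, the counts were 10 of 23 and 11 of 24. Genes highest in OPC, such as Sema3d, Ntn1 and Sema5b, passed both shares by construction. Their part of the counts does not bear on free RNA. Plxna2 in OPC was at 12.3% of its DG-i level and Sema3c at 3.4%. Their differences of -3.42 ± 0.23 for ODC minus OPC (Plxna2, adjusted p = 6.9e-14) and -4.80 ± 0.46 for AST minus OPC (Sema3c, adjusted p = 1.3e-18) thus concern values under it. The part of free RNA in these differences was not tested. Some marker lists did not single out their class when summed. The inhibitory list stood at 16330 CPM in INH, 9020 CPM in OPC and 6555 CPM in ODC, with Erbb4 its highest gene in both glial classes. Without Erbb4 it was at 8269 CPM in INH, 4967.5 CPM in OPC and 192 CPM in ODC, so OPC stayed high. The CA1 list was higher in ODC (1866 CPM) than in CA1 (1265 CPM), and without its leading gene Man1a it was at 63.5 CPM in ODC and 573 CPM in CA1. The CA3 list stood at 2196 CPM in AST and 4080.0 CPM in CA3, and without Trps1 at 490.3 and 2619 CPM.

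Accessibility was read from the same nuclei as ATAC counts over peaks within 2000 bases of an annotated start, and 65 to 67 of the 70 genes could be tested in each comparison. Between the granule stages 26 guidance genes were more accessible in DG-i and 8 in DG-M (18.7% and 21.0% of all genes). In ODC against OPC 9 were more and 31 less accessible (15.6% and 20.3%), and in AST against OPC 10 and 32 (19.4% and 19.8%). CA1 and CA3 differed at 3 genes higher in CA1 and 13 higher in CA3 (6.88% and 8.30%). For CA1 against DG-M the counts were 11 and 14 (17.4% and 14.7%), and for CA3 against DG-M 15 and 8 (17.2% and 15.2%). Peaks over the whole gene body gave more calls in the pyramidal comparisons: 29 in place of 16 for CA1 and CA3, 52 in place of 25 for CA1 and DG-M, and 46 in place of 23 for CA3 and DG-M. Calls over all genes rose as well, from 15.2% to 27.7%, from 32.2% to 52.2% and from 32.4% to 50.9%.

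Of the 46 genes called between the granule stages in RNA, 28 were also called in accessibility, and 27 of these in the same direction. Over all genes 48.2% of those called in RNA were also called in accessibility, 88.9% of them in the same direction. The exception was Robo1, whose RNA was higher in DG-i and whose promoter peaks were lower (-0.83 ± 0.23, adjusted p = 0.0020). Peaks within 2000 bases of a Sema3c start held 29.2, 31.5, 37.9 and 45.0 ATAC CPM in DG-i and 7.1 to 12.1 in DG-M (1.82 ± 0.16, adjusted p = 1.6e-19). Slit1 was at 2.2 to 5.2 ATAC CPM in DG-i and 14.8 to 20.9 in DG-M (-2.33 ± 0.23, adjusted p = 3.8e-16), and Robo3 at 18.6 to 23.9 and 34.3 to 43.7 (-1.07 ± 0.12, adjusted p = 7.1e-13). No overlap was seen for any of the 3. Unc5c followed them (-1.69 ± 0.19, adjusted p = 6.0e-13), and Plxnb1 (2.01 ± 0.14, adjusted p = 1.7e-25) and Dcc (0.89 ± 0.11, adjusted p = 2.5e-12) opened with their RNA in DG-i. Sema3a and Epha10 did not pass the test: accessibility differed by 0.14 ± 0.20 (adjusted p = 0.62) and 0.10 ± 0.15 (adjusted p = 0.61).

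In the pyramidal fields, 12 of the 28 genes called in RNA between CA1 and CA3 were also called in accessibility (42.9%). Over all genes this share was 23.1%. All 12 had the same direction in both readouts, as did 92.1% of all genes called in both. Slit2 was among them, at 5.2 to 9.5 ATAC CPM in CA1 and 13.9 to 16.3 in CA3 (-0.96 ± 0.20, adjusted p = 3.0e-04). So were Nrp1 (-0.83 ± 0.12, adjusted p = 2.6e-07) and Nrp2 (-0.81 ± 0.13, adjusted p = 3.1e-06). Against DG-M, 20 of 39 genes called in RNA for CA1 and 17 of 38 for CA3 were also called in accessibility (51.3% and 44.7%). Over all genes these shares were 38.8% and 37.9%. Of the genes called in both, 18 of 20 for CA1 and 16 of 17 for CA3 went the same way. The exceptions were Efna5 and Slit1 for CA1 and Ephb2 for CA3. With library totals Ephb2 was called in neither readout there. The share of all accessibility calls that were higher in CA3 than in DG-M was 53.1% with TMM scaling and 63.6% with totals, and the guidance genes called were 15 and 8 against 16 and 6. Of all genes called in both readouts against DG-M, 88.8% for CA1 and 86.5% for CA3 had the same direction in RNA and accessibility. Among the guidance genes Sema5a had the largest difference in accessibility between CA1 and DG-M (-1.98 ± 0.13, adjusted p = 2.7e-38), next to its RNA difference of -3.27.

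In glia all 22 genes called in both readouts between ODC and OPC had the same direction, and so did 22 of 23 between AST and OPC, where Sema6d was the exception (its accessibility was not called with library totals, adjusted p = 0.099). Among all genes called in both, 94.5% and 95.0% had the same direction. Of the guidance genes called in RNA and tested in both readouts, 71.0% and 71.9% were called in both. Over all genes these shares were 49.4% and 57.2%. The Ntn1 promoter region fell from 76.7, 76.3, 61.6 and 55.4 ATAC CPM in OPC to 6.3 to 16.9 in ODC (-2.65 ± 0.20, adjusted p = 5.0e-21). Sema5b (-2.32 ± 0.20, adjusted p = 3.2e-17) and Efnb3 (2.37 ± 0.15, adjusted p = 2.6e-25) had the direction of their RNA. For Unc5b the readouts differed in size: its promoter peaks held 59.6 to 65.1 ATAC CPM in OPC, where its RNA was at 0 to 5.35 CPM, and 66.8 to 96.9 in ODC, a difference of 0.38 ± 0.12 (adjusted p = 0.0096). Unc5c was at 58.2 to 73.1 in OPC and 50.6 to 61.8 in ODC, which did not pass the test (-0.15 ± 0.14, adjusted p = 0.43). Across the means of the 9 classes, the correlation of RNA with accessibility had a median of 0.789 over the 58 genes, lay over 0.5 for 53 and under 0 for 0, and 28 had the same highest class in both. Over 12769 genes the median was 0.654, 64.4% lay over 0.5, 12.6% lay under 0 and 47.6% had the same highest class. Classes share libraries and depth, so this is a description.

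**Figure D4:**
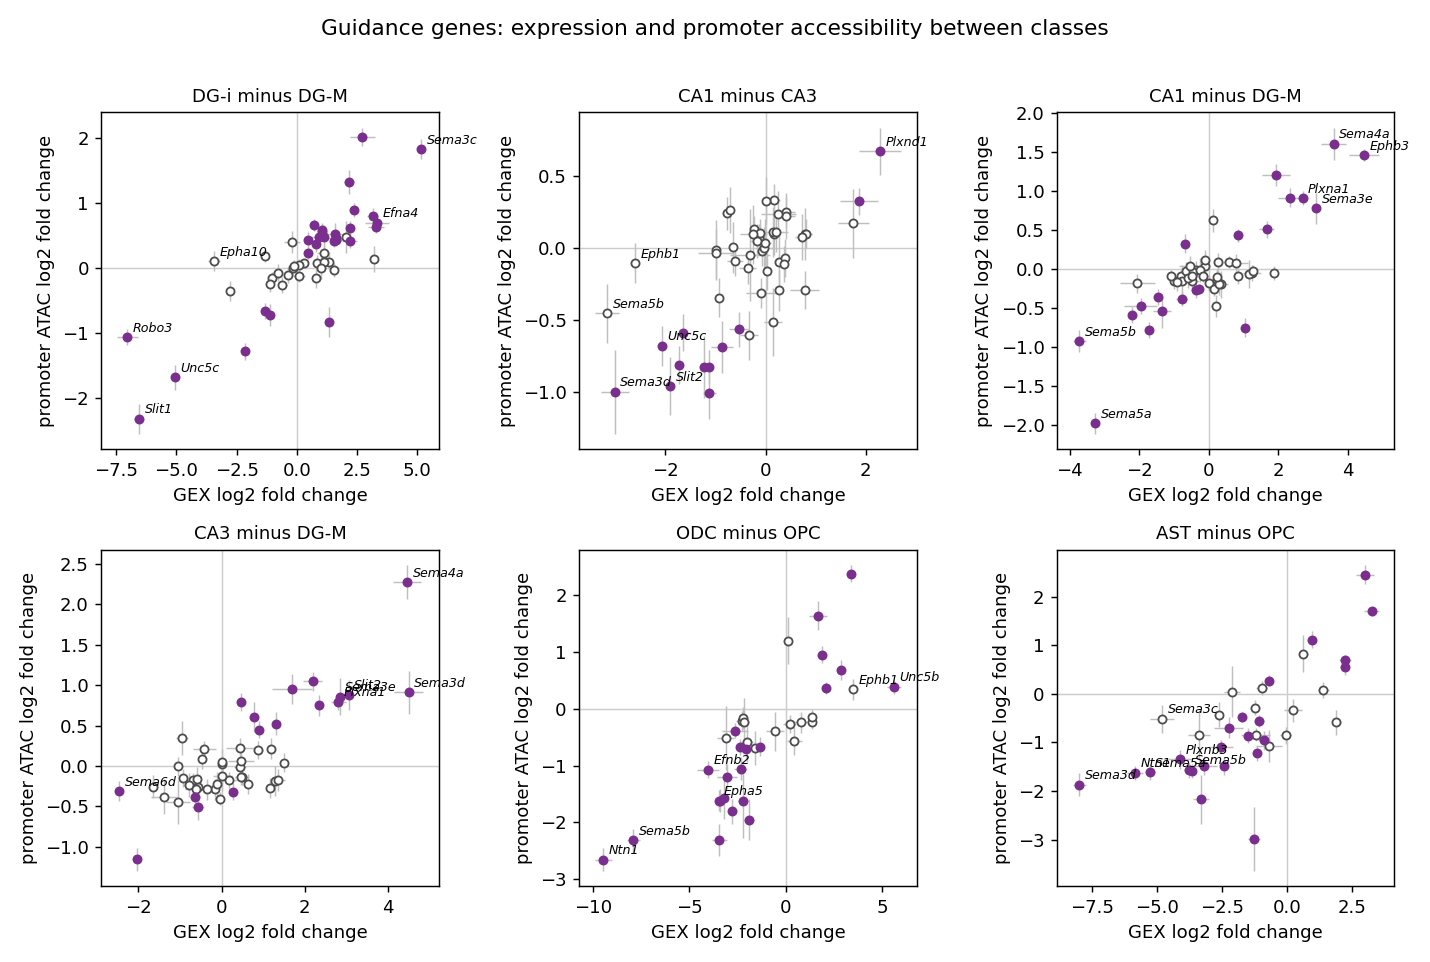
Difference in RNA (horizontal, log2 fold change) against difference in promoter accessibility (vertical, log2 fold change) of each guidance gene in 6 pairs of classes, with bars of 1 SE. Filled points were called in both readouts and nearly all lie in the lower left or upper right, with Robo1 the filled exception between the granule stages.

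Genes outside these families were read from 2 lists, and those named were chosen after their values were seen. Unlike the guidance genes, the genes of these lists were not left out of the clustering. Their differences between classes can therefore partly reflect how the classes were formed. Of 50 intracellular effectors of guidance receptors, 49 were tested between the granule stages, and 19 were higher in DG-i and 16 in DG-M. The guanine nucleotide exchange factor Vav2 (3.93) and the collapsin response mediator Dpysl3 (2.59) were higher in DG-i, and Grb10 (-3.35) in DG-M, as log2 differences. Between ODC and OPC 13 of 41 effectors were higher in ODC and 18 in OPC, and between AST and OPC 13 and 14 of 43. The counts were 10 and 10 of 49 for CA1 and CA3, 16 and 18 of 49 for CA1 and DG-M, and 16 and 15 of 49 for CA3 and DG-M. The shares of all genes called in these comparisons are those given above for RNA, and the lists were not tested against them. Of 24 further cues and receptors, 9 of 21 tested were higher in DG-i, among them Draxin (4.64), a netrin antagonist, and Cxcr4 (3.75), a chemokine receptor, and 7 were higher in DG-M, among them Ntng1 (-4.92). Their counts were 7 and 4 of 21 for CA1 and CA3, 7 and 7 of 21 for CA1 and DG-M, 5 and 8 of 21 for CA3 and DG-M, 7 and 7 of 17 for ODC and OPC, and 6 and 6 of 14 for AST and OPC. Draxin was among the 10 leading genes of a DG-i cluster of 87 nuclei, so its difference is not independent of that class.

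The diet comparison asked whether high maternal folic acid changed these genes in any class. None of the 70 was called in any of the 9 classes, in RNA or in accessibility, by edgeR or by DESeq2. The share of all genes called in RNA was 0% in CA1, CA3, DG-M, DG-i, INH, AST, ODC and MG and 0.0550% in OPC. In accessibility it was 0.0101% in CA1, 0.00536% in CA3, 0.00502% in DG-M, 0.0464% in DG-i, 0.00519% in INH, 0.0178% in AST, 0.0439% in OPC, 0.0706% in ODC and 0.125% in MG. At an unadjusted p under 0.05 there were 1, 2, 1, 0, 3, 4, 2, 2 and 0 guidance genes in RNA in CA1, CA3, DG-M, DG-i, INH, AST, OPC, ODC and MG (1.41% to 3.21% of all genes in a class, 2.52% in AST, where 30 guidance genes were tested). In accessibility there were 4, 2, 1, 5, 4, 2, 1, 3 and 2 in the same order, against 3.21% to 4.65% of all genes in a class. The 5 in DG-i were of 66 tested, and 4.16% of all genes had such a p there. From 11 (MG) to 52 (INH) of the 70 genes could be tested in RNA and 33 to 67 in accessibility. Over all of them the log2 differences ran from -1.04 (in ODC) to 1.75 (in AST) in RNA. In accessibility they ran from -1.26 (in ODC) to 1.43 (in MG). The design of 2 libraries a diet bounds what it can show: the standard errors of the log2 differences in RNA ran from 0.17 to 0.83, and an exact permutation test of 2 against 2 libraries cannot go below p = 0.333.

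For the 20 genes shown by library above, the diets were also set side by side in the class each is named for. The log2 difference between HF and MF lay between -0.41 and 0.24 in RNA, with standard errors of 0.19 to 0.34. Sema3c in DG-i, for example, was at 1446 and 1337 CPM on MF and at 1338 and 1434 CPM on HF, and its peaks in DG-i held 29.2 and 31.5 ATAC CPM on MF and 37.9 and 45.0 on HF (0.44, SE 0.21), over 904, 1432, 887 and 2332 covered bases in MF1, MF2, HF1 and HF2. Per covered kb Sema3c was at 32.3 and 22.0 ATAC CPM on MF against 42.7 and 19.3 on HF, so that the diets overlapped and HF2 was lowest. In accessibility the differences ran from -0.61 to 0.44, with standard errors of 0.10 to 0.36. At an unadjusted p under 0.05 there were 5 of the 20, against 3.21% to 4.65% of all genes in a class, and none passed the adjustment. They were Sema3c in DG-i and Unc5b in ODC, higher on HF, and Epha6 in CA1, Efna5 in INH and Ntn1 in OPC, lower on HF. Per covered kb Efna5 also overlapped between the diets (19.7 and 15.07 against 12.9 and 15.18), while Unc5b, Epha6 and Ntn1 did not. Peaks had been called in each library separately, so the covered length enters these values: over all 70 genes it was 109395, 111880, 109766 and 108211 bases in MF1, MF2, HF1 and HF2. Sema5b had 2172 bases in MF1 and 1440 to 1540 in the other libraries, and Ntn5 had 1728 and 1772 bases on MF against 889 and 895 on HF.

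The genes with the smallest p in a class were not the same from class to class in RNA, apart from Sema3c. The smallest p was that of Ephb3 in CA1, Unc5d in DG-i, Sema3d in INH, Unc5c in AST and Sema3e in OPC. Sema3c had it in CA3 and DG-M, Robo2 in ODC and Dcc in MG. In accessibility Sema5b had it in 4 classes (CA1, DG-i, INH and ODC) and Ntn1 in AST and OPC, and the classes share their libraries and their peaks. Per covered kb, Sema5b was at 6.45 and 7.59 ATAC CPM on MF and 3.75 and 4.78 on HF in CA1, at 8.73 and 12.2 against 3.76 and 6.18 in ODC and at 12.7 and 15.9 against 10.2 and 12.4 in INH, without overlap. In DG-i the diets overlapped on that scale. Sema3c was at 30.1 and 21.1 CPM on MF and 30.6 and 48.9 CPM on HF in DG-M (0.72, SE 0.26), where HF1 lay just above MF1, and at 11.4 and 11.3 against 11.5 and 30.2 CPM in CA3 (0.94, SE 0.41), where HF2 stood apart. Dcc in MG was at 41.5 and 40.0 CPM on MF and 158 and 12.9 CPM on HF (1.16, SE 0.59), so that HF1 alone stood above the others. Over the 4 libraries this was 0.795% of the Dcc level in DG-i, under the share of Slc17a7 in MG, and so it is not read as expression. The MG nuclei of HF1 also carried the choroid plexus markers described above (3781 CPM in HF1 and 0 to 18.0 CPM in the other libraries), and their part in the Dcc difference was not tested. Robo2 in ODC was at 8.87 and 10.4 CPM against 30.2 and 22.0 CPM (1.49, SE 0.47), with no overlap. This was 1.96% of its level in DG-M over the 4 libraries, under the share of Slc17a7 in ODC, and it too is not read as expression. The difference was 0.03 with the guidance genes in the clustering. Leaving out a single library brought 4 RNA calls. These were Efna5 in CA1 without MF2 (1.33, adjusted p = 0.011), Sema3c in DG-M without HF1 (1.09, adjusted p = 0.020), Ephb1 in INH without HF1 (1.05, adjusted p = 0.013) and Dcc in MG without HF2 (1.94, adjusted p = 2.8e-04). In accessibility it brought Sema5b in DG-i (-1.05, adjusted p = 0.0052) and Sema6c in INH (-0.73, adjusted p = 0.028), both without MF2. Without MF1 the Sema5b difference in DG-i was 0.0099.

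**Figure D5:**
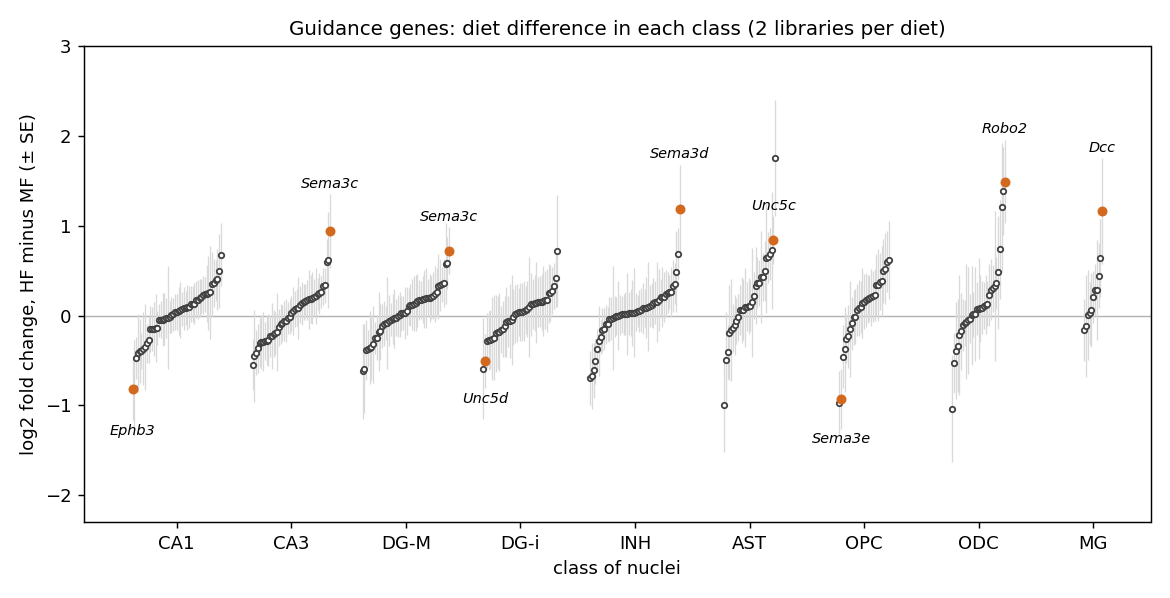
Difference between diets (log2 fold change, HF minus MF, with bars of 1 SE) of each guidance gene tested, sorted within each of 9 classes of nuclei. The filled point is the gene with the smallest p in the class, and none passed the adjusted threshold; the points of every class spread on both sides of 0.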

How the data were processed

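Per the labels, nuclei of 4 hippocampus libraries were run as 10x multiome and processed by the authors with Cell Ranger ARC 2.0.1 on mm10. The deposited values are raw UMI counts per gene and ATAC counts per peak, with peaks called in each library separately. Nuclei with 500 to 7000 genes, at most 2% mitochondrial UMIs and 1000 to 70000 ATAC counts were kept. They were clustered with scanpy 1.11.5 (Leiden resolution 0.8, and 0.5 within excitatory nuclei), without the guidance genes among the variable genes. Clusters were named from fixed markers (at least 3 among the 50 leading genes), by a rule settled after the clusters were seen. Scrublet marked 0% of HF2 by its own threshold, so a doublet score over 0.05 was used: clusters with a median above it were dropped, and other nuclei over it were kept.

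Counts were summed per library and class, and the nuclei of a class were never treated as replicates. They were tested with edgeR 4.0.16 (quasi-likelihood, TMM, filterByExpr, two-sided, R 4.3.3) over all genes, with Benjamini-Hochberg adjustment. The fit of each class pair had the library as a block and that of diet had none. ATAC counts were summed per gene over peaks within 2000 bases of a start in GENCODE M21. The study's Wilcoxon test over nuclei was not used. Up to 3 clear genes were named for each class and up to 6 genes in each direction for each class pair, those with the largest difference of one sign in 4 of 4 libraries, beside fixed ligand and receptor groups. The genes and lists were chosen with earlier results of these data known. Alternatives were DESeq2 1.42.0, other scaling (RLE, and library totals, added after seeing the data), filters, windows, clusterings, no nuclei over the doublet score, and each library left out. Counting intervals cover counting error only. The fits were also run on simulated counts with few changed genes, the same spread for every gene and no library effect. Those counts are simpler than these data, and nothing here rests on them.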

Additional observations from a re-analysis of the deposited data

Results flagged for a closer look

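In 6 of the 92 sets of 4 library values examined, for genes named above in the classes where they were named or tested, a library stood apart from the other 3 (by Dixon's ratio of its gap to the whole range, at the 95% critical value for 4 samples); about 1 set in 20 does so by chance. Unc5a in DG-M was at 55.9 CPM in MF1 and at 46.7, 46.7 and 44.9 CPM in MF2, HF1 and HF2. Unc5c in CA1 was at 274 CPM in MF1 and at 426, 439 and 446 CPM in the others. Sema6d in CA3 was at 154.8 CPM in HF2 against 115, 112 and 119 CPM. Sema4d in ODC was at 199.7 CPM in MF2 against 243, 236 and 238 CPM. Sema5b in OPC was at 247 CPM in HF2 against 205, 202 and 207 CPM, and Plxna2 in OPC was at 143 CPM in HF2 against 114, 116 and 118 CPM. No library was the one apart in more than 3 of the 6 sets.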

How the results depend on the processing

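Under other settings, 395 values of the main counts stayed within 1.5 times the count given above and 10 did not. Counting ATAC over the gene body with 2000 bases upstream moved 3 of them, to 29 guidance genes between CA1 and CA3, 52 between CA1 and DG-M and 46 between CA3 and DG-M. Between diets, every setting gave 0 calls except a few that gave 1: no low-count filter in MG (Robo2 in RNA, 2.90 on the log2 scale, from 34 UMIs in all and at 3.49% of its DG-M level, under the free RNA share, with 7.22 and 5.71 CPM on MF and 32.2 and 81.7 on HF), and leave-one-out fits, which ranged from 0 to 1 in RNA in CA1 (Efna5, 1.33 without MF2), DG-M (Sema3c, 1.09 without HF1), INH (Ephb1, 1.05 without HF1) and MG (Dcc, 1.94 without HF2) and in accessibility in DG-i (Sema5b) and INH (Sema6c, -0.73), both without MF2. Where a diet was left with 1 library, that library was assumed to vary as the other diet's did. Of the named genes, Plxna3 between CA3 and DG-M lost its call with DESeq2 (-1.07, adjusted p = 0.074), and Sema5b accessibility in DG-i turned from -0.64 to 0.0099 without MF1 and was -1.05 (called) without MF2. The cause was not tested. Leaving out nuclei over the doublet score moved no count by over 1.5 times: between ODC and OPC 28 of 33 genes tested were called in place of 32 of 37, and Dcc in MG and Sema3c between AST and OPC could no longer be tested. Replicate numbers were shared by the diets, and same-numbered libraries deviated together by r = 0.10 to 0.25 in RNA and 0.014 to 0.13 in ATAC; with only 2 pairs they share only a number. A replicate block gave 0 guidance genes in all 18 diet comparisons. Between diets, 11 guidance genes could be tested in MG, the class with the fewest UMIs, and 29 to 52 in the others.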

Other observations

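Smaller clusters outside the 9 classes carried some of the highest levels of single guidance genes, given here as values without a test. In nuclei with Cajal-Retzius markers (133 nuclei, at least 21 in a library), Robo2 was at 3442, 3177, 2530 and 3490 CPM and Epha3 at 995, 858, 1672 and 1006 CPM, above every library of the 9 classes. Plxnd1, which had a mean of at most 6.41 CPM in those classes, was at 82.3, 40.9, 34.8 and 32.7 CPM there. A cluster of 204 nuclei that met no name held Plxnc1 at 157, 152, 140 and 163 CPM and Ntn4 at 41.9, 50.6, 67.5 and 40.7 CPM, also above every library of the 9 classes. Sema3a was at 65.6, 531, 151 and 262 CPM in nuclei with vascular leptomeningeal markers (119 nuclei, at least 7 in a library, 31.9% of them over the doublet score) and at 0, 61.3, 331 and 6.53 CPM in the Cajal-Retzius cluster, against a mean of 86.5 CPM in DG-i. The leptomeningeal cluster also held choroid plexus markers at 3533 CPM summed (all 6 present) and astrocyte markers at 3203 CPM, beside 3659 CPM of its own, and their part in the Sema3a level was not tested. These 6 genes were chosen after their values were seen.

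With the nuclei over the doublet score left out, Ephb1 joined Sema4a, Sema4d and Plxnb3 as a gene whose COP libraries lay above every library of the 9 classes, at a mean of 836 CPM.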
